A study of Mus musculus with 15 samples.

Results

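The genes described here encode negative regulators of MAP kinase signalling, most of them of the RAS to ERK cascade: the dual-specificity phosphatases Dusp1, Dusp2, Dusp4, Dusp5, Dusp6, Dusp7 and Dusp10, the Sprouty genes Spry1 and Spry2, and the Sprouty-related gene Spred1. They were taken by symbol, 10 genes of 46118 in the deposited tables, and none of them had a second copy on a scaffold. All 10 passed the filter on low counts in every comparison. The values are read counts over exons from 15 libraries of 100 sorted hematopoietic stem cells (HSCs, the marrow cells that renew themselves and form all blood lineages) from the bone marrow of wild type C57BL/6 mice aged 8 to 10 weeks. The Untreated group (n = 4) came from untreated mice and the 5-FU day4 group (n = 4) from mice given 5-fluorouracil, a drug that blocks thymidylate synthesis and so removes cycling marrow cells, and sampled at day 4. The Control (n = 3) and Nifedipine (n = 4) groups were cultured without or with nifedipine, a blocker of L-type voltage-gated calcium channels, and the sorted cells were within 3 divisions. The labels give neither dose nor culture time. They also leave unsaid whether the replicates of a group are separate animals or cultures, so each p-value reflects the spread among these libraries alone, and that spread may be technical.

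Growth factor receptors pass their signal through RAS, RAF and MEK to the kinase ERK, which enters the nucleus and changes transcription. MAPK phosphatases remove the activating phosphates from ERK, p38 or JNK, and Sprouty and Spred proteins act further up, between the receptor and RAF. Several of these inhibitors are themselves induced by ERK, which makes them a feedback on the pathway and a common transcript readout of it. In HSCs the pathway lies downstream of cytokine receptors, among them the receptor for stem cell factor.

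Levels are given as CPM, the exon reads of a gene scaled to a common library total with TMM over all 15 libraries. Libraries held between 6171730 and 26673045 exon reads. All 10 HSC marker genes on the list used here were tested in each comparison, and their summed level was 4860 to 5284 CPM in Untreated, 3510 to 3758 in 5-FU day4, 1507 to 1632 in Control and 2559 to 2933 CPM in Nifedipine libraries. The Untreated libraries differed in reads of other cells. Erythroid markers (8 genes) summed to 1103 and 1339 CPM in Untreated 2 and 4 and to 32.1 and 4.24 CPM in Untreated 1 and 3. Endothelial and stromal markers (9 genes) summed to 498, 1677, 137 and 487 CPM in Untreated 1 to 4. In 5-FU day4 libraries, endothelial and stromal markers summed to 94.8 to 422 CPM, highest in 5-FU day4 4. In bulk libraries, fewer cells of a type and less RNA per cell cannot be told apart.

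Promoter stretches are shown for Dusp1, Dusp2 and Dusp5, the members with the largest falls after 5-FU, and for Dusp6, which had the largest rise with nifedipine. They are the 250 bases before the transcription start in RefSeq (GRCm38.p6), 5′ to 3′ on the strand of the gene, and 9 of the 10 members had an entry. Capitals mark matches to a cyclic AMP response element (TGACGTCA), its core (TGACG, contained in the full element), an E-box (CACGTG) or a CArG box, the site of serum response factor, on either strand. Dusp1 (chr17:26508473-26508722, minus strand), Dusp2 (chr2:127335909-127336158, plus strand), Dusp5 (chr19:53528895-53529144, plus strand) and Dusp6 (chr10:99262981-99263230, plus strand) read:
Dusp1: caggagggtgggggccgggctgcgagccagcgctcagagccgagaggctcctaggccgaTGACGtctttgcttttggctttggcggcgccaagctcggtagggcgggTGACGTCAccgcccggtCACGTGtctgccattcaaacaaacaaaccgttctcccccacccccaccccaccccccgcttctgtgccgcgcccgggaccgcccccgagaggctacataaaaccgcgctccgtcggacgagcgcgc
Dusp2: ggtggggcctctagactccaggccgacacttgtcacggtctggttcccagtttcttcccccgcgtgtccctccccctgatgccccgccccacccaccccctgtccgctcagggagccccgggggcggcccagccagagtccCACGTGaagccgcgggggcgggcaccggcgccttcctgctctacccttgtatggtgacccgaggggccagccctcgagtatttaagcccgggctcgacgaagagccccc
Dusp5: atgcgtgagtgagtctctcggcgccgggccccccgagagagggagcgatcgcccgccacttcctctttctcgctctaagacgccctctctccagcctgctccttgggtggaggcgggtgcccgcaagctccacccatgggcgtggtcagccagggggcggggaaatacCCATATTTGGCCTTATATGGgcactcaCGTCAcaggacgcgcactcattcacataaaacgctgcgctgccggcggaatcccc
Dusp6: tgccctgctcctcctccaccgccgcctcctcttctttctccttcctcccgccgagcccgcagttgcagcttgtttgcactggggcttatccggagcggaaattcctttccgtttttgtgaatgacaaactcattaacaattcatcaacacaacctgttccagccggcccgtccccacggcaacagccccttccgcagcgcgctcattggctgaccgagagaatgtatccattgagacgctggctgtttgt
The Dusp1 stretch holds a full cyclic AMP response element at -143 to -136, counted from the start, and an E-box at -126 to -121. The Dusp5 stretch holds a pair of CArG boxes side by side, at -82 to -73 and -72 to -63, and a core match at -55 to -51. Dusp2 holds an E-box at -109 to -104. Among 32851 promoter stretches of this length in RefSeq, 1.55% hold the full element, 17.8% the core, 6.02% the E-box and 1.47% a CArG box. The letters of an AP-1 site (TGANTCA, in 6.75% of stretches), an ETS site (CCGGAAG, 6.91%), a FOXO site (GTAAACA, 3.17%) and a STAT site (TTCNNNGAA, 7.02%) are in none of the 9 stretches, and a GC box (GGGCGG, 32.7%) is in 6, those of Dusp1, Dusp2, Dusp5, Dusp10, Spry1 and Spred1. These matches are a description of letters and not of bound sites.

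Compared per kilobase of exon, the order of the genes differed between groups. In Untreated HSCs Dusp1 had the highest level, at 136 ± 25.9 CPM per kilobase (mean ± SD, n = 4), followed by Dusp2 at 62.1 ± 13.7, Spred1 at 43.6 ± 2.92, Dusp6 at 30.2 ± 3.94, Spry1 at 18.1 ± 1.71 and Dusp5 at 12.6 ± 4.53 CPM per kilobase. Dusp4, Spry2, Dusp7 and Dusp10 lay between 8.51 and 2.12 CPM per kilobase. In 5-FU day4 HSCs Spred1 was highest, at 51.9 ± 2.10, close to Dusp1 at 51.0 ± 24.0 CPM per kilobase (n = 4). Spred1 was also highest in Control and Nifedipine HSCs, at 51.4 ± 2.30 (n = 3) and 73.8 ± 1.72 (n = 4) CPM per kilobase. Dusp1 stood there at 3.32 ± 0.761 and 4.42 ± 1.42. Dusp10 was lowest in all 4 groups, between 1.06 and 2.18 CPM per kilobase.

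**Figure D1:**
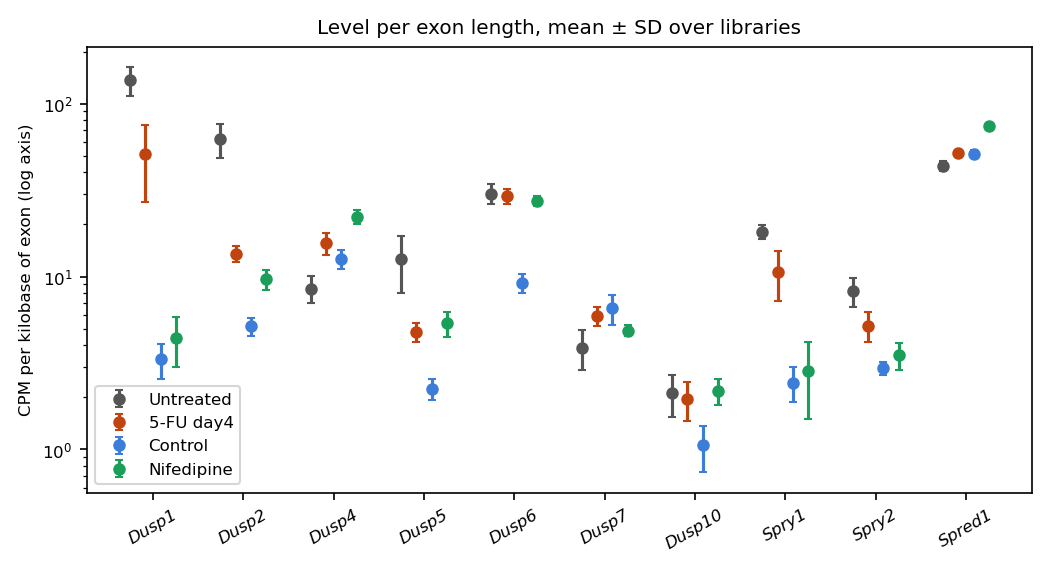
Level of the 10 genes per kilobase of exon (log axis), mean ± SD over the libraries of each group, with one colour per group. Dusp1 lies at 136 CPM per kilobase in Untreated and 3.32 in Control HSCs, while Spred1 lies between 43.6 and 73.8 in all 4 groups.

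The first comparison asked how HSCs of mice treated with 5-fluorouracil differ from HSCs of untreated mice. The nuclear phosphatase genes Dusp1, Dusp2 and Dusp5 and the Sprouty genes Spry1 and Spry2 fell at day 4, and Dusp4, Dusp7 and Spred1 rose. The cytoplasmic phosphatase gene Dusp6 did not pass the test. In all, 8 of the 10 genes were called (adjusted p of 0.05 or less, edgeR quasi-likelihood test with Benjamini-Hochberg adjustment), against 50.5% of the 13382 genes tested. Of these, 5 fell, against 23.8% of all genes, and 3 rose, against 26.8%. For 7 of the 10 genes the ranges of the groups did not overlap, 3 higher and 4 lower, against 47.4% of all genes, 24.1% higher and 23.3% lower. The median log2 fold change was -0.35 over the 10 genes and -0.02 over all genes tested.

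Dusp1 (chromosome 17, 26505591 to 26508472, mm10) encodes a nuclear phosphatase of p38, JNK and ERK and is itself an immediate early gene, one that responds within minutes to stimulation. It was at 265, 195, 287 and 312 CPM in Untreated 1 to 4 and at 68.1, 60.2, 162 and 105.5 CPM in 5-FU day4 1 to 4. The groups did not overlap, and 5-FU day4 3 lay closest to the Untreated range. The fall was 2.62-fold (log2 fold change -1.39 ± 0.28 SE, adjusted p = 0.00185, edgeR). Dusp2 (chromosome 2, 127336159 to 127338377), a nuclear phosphatase first found in activated T cells, was at 88.9, 83.3, 97.1 and 133 CPM in Untreated and at 21.4, 20.9, 25.3 and 20.3 CPM in 5-FU day4 libraries. The 4 treated values lay close together and far under the lowest Untreated one. This was the largest change of the 10 genes in this comparison, at 4.49-fold (-2.17 ± 0.15, adjusted p = 3.91e-06, edgeR).

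Dusp5 (chromosome 19, 53529318 to 53541322) encodes a nuclear phosphatase that acts on ERK alone and holds it in the nucleus. It was at 8.81, 11.8, 20.6 and 16.9 CPM in Untreated and 5.75, 4.75, 5.21 and 6.34 CPM in 5-FU day4 libraries, a fall of 2.58-fold (-1.37 ± 0.26, adjusted p = 0.00128, edgeR). The Untreated values spread over a more than 2-fold range, while the treated values were close together. Dusp4 (chromosome 8, 34807610 to 34819894), a nuclear phosphatase closely related to Dusp1, went the other way. It was at 24.2, 15.5, 20.7 and 22.2 CPM in Untreated and 30.4, 36.8, 41.0 and 42.9 CPM in 5-FU day4 libraries, with no overlap, and rose 1.85-fold (0.89 ± 0.15, adjusted p = 0.000656, edgeR).

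Dusp6 (chromosome 10, 99263231 to 99267489), the cytoplasmic phosphatase specific to ERK, was at 82.8, 85.8, 97.8 and 71.0 CPM in Untreated and 75.6, 77.4, 93.2 and 80.2 CPM in 5-FU day4 libraries. The ranges overlapped almost fully (log2 difference -0.02, 95% interval -0.24 to 0.21, adjusted p = 0.893, edgeR). Dusp7 (chromosome 9, 106368610 to 106375724), its cytoplasmic relative, was at 7.87 to 15.2 CPM in Untreated and 16.4 to 21.7 CPM in 5-FU day4 libraries (0.64 ± 0.20, adjusted p = 0.0208, edgeR). This call was lost without 5-FU day4 1 (adjusted p = 0.0543, edgeR) or 5-FU day4 3 (0.0576). Dusp10 (chromosome 1, 184034461 to 184075636), a phosphatase of p38 and JNK rather than ERK, was at 5.88 ± 1.59 and 5.44 ± 1.41 CPM (n = 4 each), and its 95% interval of -0.68 to 0.54 (log2 difference -0.07) leaves room for a change in either direction.

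Spry1 (chromosome 3, 37639947 to 37644599) and Spry2 (chromosome 14, 105891947 to 105896819) encode membrane-associated inhibitors of signalling from receptor tyrosine kinases. Spry1 was at 39.0, 48.2, 46.0 and 47.6 CPM in Untreated and 22.2, 16.5, 33.7 and 34.0 CPM in 5-FU day4 libraries (-0.73 ± 0.20, adjusted p = 0.0121, edgeR). Spry2 was at 21.4, 28.2, 27.4 and 34.3 CPM against 14.8, 16.8, 22.6 and 15.9 CPM (-0.64 ± 0.17, adjusted p = 0.0102, edgeR). The Spry1 groups did not overlap, and those of Spry2 did, since 5-FU day4 3 lay above Untreated 1. Spred1 (chromosome 2, 117121071 to 117182279), which brings the RAS inactivator neurofibromin to the membrane, was at 280, 329, 312 and 314 CPM in Untreated and 347, 378, 379 and 369 CPM in 5-FU day4 libraries. This small rise of 1.22-fold was well above the spread (0.28 ± 0.06, adjusted p = 0.00213, edgeR), with values of 0.48 when the read total behind the deposited RPKM values served as library size and 0.44 after correction for exon length.

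**Figure D2:**
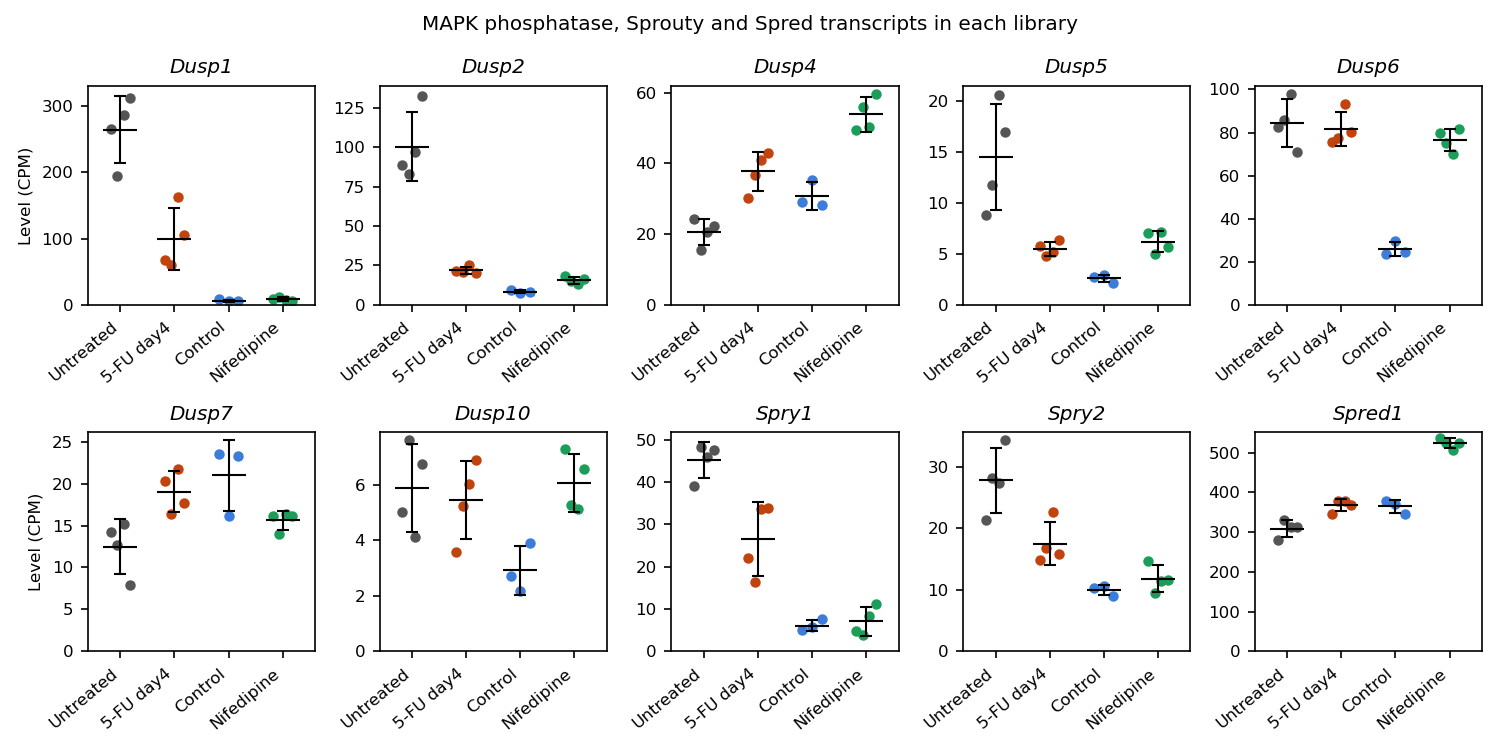
Level (CPM, each axis starts at 0) of each gene in each library, one point per library in replicate order, with the mean and SD of each group as a bar. Dusp1, Dusp2 and Dusp5 are highest in Untreated, Dusp4 and Spred1 in Nifedipine HSCs, and Dusp6 lies at 23.5 to 29.5 CPM in Control against 70.0 CPM or more in the other 3 groups.

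The falls of Dusp1, Dusp2 and Dusp5 came with a fall of the immediate early genes, a list of 18 genes without the phosphatases. Of these, 16 fell and 0 rose after 5-FU (median log2 fold change -1.92), among them Btg2, an antiproliferative gene (-4.19), Egr1, a transcription factor induced by ERK (-2.63), and Ier2 (-2.09). Their summed level was 3621, 2951, 4659 and 5187 CPM in Untreated 1 to 4 and 759, 602, 1489 and 1280 CPM in 5-FU day4 1 to 4. Within both fresh groups Dusp1 put the libraries in the same order as this sum. Dusp2 did so among the Untreated libraries but not among the 5-FU day4 libraries, and Dusp6 did so in neither group. What set the level of the immediate early genes in a library was not tested.

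**Figure D3:**
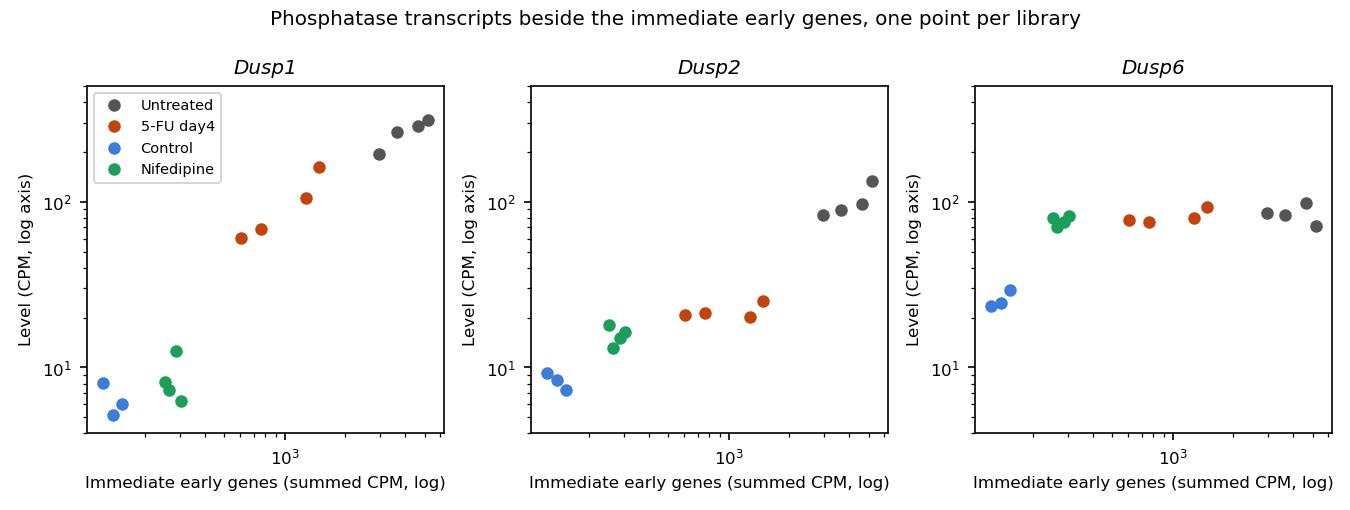
Levels of Dusp1, Dusp2 and Dusp6 (CPM, log axis) against the summed level of 18 immediate early genes (CPM, log axis), one point per library, coloured by group. Dusp1 and Dusp2 are highest where the sum is highest, in Untreated libraries, while Dusp6 stands at 70.0 to 97.8 CPM in Untreated, 5-FU day4 and Nifedipine libraries, whose sums run from 252 to 5187.

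Markers of other cells differed between the fresh groups as well. Endothelial and stromal markers fell in 5 of 9 genes tested and rose in 0, with summed levels of 137 to 1677 CPM in Untreated and 94.8 to 422 CPM in 5-FU day4 libraries, and none of the 9 was at 0 reads in either group. Erythroid markers summed to 4.24 to 1339 CPM in Untreated and 7.69 to 18.2 CPM in 5-FU day4 libraries, where Hba-a1 was at 0 reads. Without Untreated 2 and 4, which hold the most erythroid reads, 3 of the 10 genes fell and 2 rose. Among all 13821 genes tested in that fit, 2444 fell and 2971 rose. Dusp1 (-1.44), Dusp2 (-2.05), Dusp5 (-1.38), Dusp4 (0.78) and Spred1 (0.34) passed. Spry1 (-0.64, adjusted p = 0.0695, edgeR), Spry2 (-0.45, 0.0846) and Dusp7 (0.40, 0.0641) did not, in a fit with 2 Untreated libraries. Untreated 1 stayed in that fit, at 498 CPM of endothelial and stromal markers against 487 CPM in the removed Untreated 4. Without 5-FU day4 4 and Untreated 3, the Untreated library lowest in both marker sums, 5 of the 10 genes fell and 3 rose. Of all 13440 genes tested in that fit, 3141 fell and 3470 rose. Since it kept Untreated 1, 2 and 4, which hold more of both kinds of markers, that fit cannot check the part of these markers. HSC markers fell in 7 of 10 cases and rose in 0. Beyond the fit without Untreated 2 and 4, the part of these markers in the results was not tested.

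The other genes of the pathway gave no single direction after 5-FU. The list of MAPK phosphatases outside the 10 genes, 6 of them tested, includes Styx, a relative without phosphatase activity. Ptpn7, a tyrosine phosphatase of ERK and p38 in blood cells, rose from 97.4 ± 8.88 to 186 ± 3.23 CPM (n = 4 each, 0.96 on the log2 scale). Dusp16, a JNK phosphatase, fell (-0.32). That call was lost with the RPKM read total (-0.13, adjusted p = 0.281, edgeR) and after length correction (0.0669). Of 3 tested further Sprouty and Spred genes, Spry4 rose 1.65 on the log2 scale, from 5.67 ± 1.90 to 17.3 ± 3.55 CPM, and Spred2 rose 0.29 (0.49 with the RPKM read total, 0.71 after length correction, and no call with all 4 groups in 1 fit, adjusted p = 0.0842, edgeR). Spry4 thus went opposite to Spry1 and Spry2. Of 24 genes of the core cascade from RAS to ERK, 9 rose and 4 fell, among the latter the RAF kinase gene Araf (-0.44, -0.24 with the RPKM read total). Of 18 inhibitors and partners, 5 rose and 3 fell, led by the adaptor Dok2 (0.98), the RAS GTPase activator Rasa3 (-0.60) and the RAF inhibitor Pebp1 (0.42, 0.23 after length correction).

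Genes that ERK is known to induce, outside the 10, were split, with 6 of 14 higher and 7 lower. This count is not separate from those above, since Ier3, Egr1, Egr2, Egr3 and Fos are also on the immediate early list and Spry4 is among the further Sprouty genes. The G1 cyclin Ccnd1 rose from 43.1 ± 10.5 to 216 ± 20.5 CPM (2.35) and the ETS factor Etv5 from 44.2 ± 7.09 to 111 ± 6.08 CPM (1.36), while Egr1 fell from 1019 ± 260 to 161 ± 42.4 CPM. Of 10 transcription factors and kinases under ERK, 2 rose and 5 fell, with Atf1 at 0.58, Elk3 at -0.39 (-0.20 with the RPKM read total) and Rps6ka5 at -0.34 (-0.15 and not called with the RPKM read total, adjusted p = 0.13, edgeR, nor without Untreated 2 and 4, 0.0729). The p38 and JNK branch had 3 of 14 higher and 5 lower, with Mapkapk2 at 0.45, Map2k6 at -0.66 and Mapk11 at 1.58. Receptors upstream of ERK fell in 10 of 14 cases and rose in 1. In every comparison this count overlaps the marker counts. The list shares Kit with the HSC, Pdgfrb with the endothelial and stromal, Csf1r with the granulocyte and monocyte, and Epor with the erythroid markers. Pdgfrb was at 9.22 to 91.2 CPM in Untreated and 2.22 to 9.20 CPM in 5-FU day4 libraries. Igf1r fell by 0.50 on the log2 scale and Csf2ra by 0.97, with Igf1r at -0.30 with the RPKM read total and -0.23 after length correction.

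The second comparison asked what nifedipine changes in cultured HSCs. Here 6 of the 10 genes rose, Dusp2, Dusp4, Dusp5, Dusp6, Dusp10 and Spred1, against 25.8% of the 12805 genes tested. Dusp7 alone fell, against 24.2% of all genes, which made 7 of 10 called against 49.9%. Dusp1, Spry1 and Spry2 did not pass. The ranges did not overlap for the 6 genes that rose and for 0 that fell, against 51.2% of all genes, 25.7% higher and 25.5% lower. The median log2 fold change was 0.67 over the 10 genes and 0.02 over all genes.

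Dusp6 had the largest change. It was at 23.5, 29.5 and 24.4 CPM in Control 1 to 3 and at 79.6, 75.1, 70.0 and 81.8 CPM in Nifedipine 1 to 4. Every Nifedipine library was more than 2 times above the highest Control library, a rise of 2.98-fold (log2 fold change 1.57 ± 0.10 SE, adjusted p = 1.25e-09, edgeR). Dusp5, the nuclear phosphatase specific to ERK, was at 2.71, 2.89 and 2.18 CPM in Control and 6.999, 4.97, 7.14 and 5.68 CPM in Nifedipine libraries, 2.39-fold higher (1.26 ± 0.28, adjusted p = 0.0012, edgeR). These levels rest on 42 to 64 reads in Control and 85 to 150 reads in Nifedipine libraries.

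Dusp2 was at 9.30, 7.30 and 8.42 CPM in Control and 18.1, 15.03, 13.1 and 16.3 CPM in Nifedipine libraries (0.90 ± 0.17, adjusted p = 0.000237, edgeR). Dusp4 was at 29.0, 35.3 and 28.1 CPM in Control and 49.6, 55.9, 50.3 and 59.7 CPM in Nifedipine libraries (0.81 ± 0.11, adjusted p = 7.03e-06, edgeR). Neither gene had overlapping groups. Dusp10, the phosphatase of p38 and JNK, was at 2.71, 2.18 and 3.90 CPM in Control and 7.28, 5.26, 5.12 and 6.57 CPM in Nifedipine libraries (1.05 ± 0.29, adjusted p = 0.00643, edgeR). Spred1 was at 377, 370 and 346 CPM in Control and 538, 524, 508 and 524 CPM in Nifedipine libraries, 1.44-fold higher with little spread (0.52 ± 0.06, adjusted p = 4.65e-07, edgeR), and at 0.35 after length correction.

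Dusp7, the cytoplasmic relative of Dusp6, was at 23.6, 16.1 and 23.3 CPM in Control and 16.1, 14.0, 16.4 and 16.2 CPM in Nifedipine libraries. Control 2 lay inside the Nifedipine range, and the fall (-0.42 ± 0.15, adjusted p = 0.0249, edgeR) lost its call without Control 1 (0.133), Control 3 (0.113) or Nifedipine 2 (0.0597), with the RPKM read total (0.0742) and with all 4 groups in 1 fit (0.0765). Dusp1 was at 8.08, 6.05 and 5.20 CPM against 8.17, 12.6, 7.35 and 6.27 CPM, with overlap (0.41, 95% interval -0.12 to 0.94, adjusted p = 0.192, edgeR). Spry1 was at 4.95 to 7.59 CPM in Control and 3.92 to 11.2 CPM in Nifedipine libraries (0.22, interval -0.43 to 0.88), and Spry2 at 9.00 to 10.6 and 9.53 to 14.8 CPM (0.25, interval -0.13 to 0.63). The intervals of these 3 genes include rises as large as that of Spred1.

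**Figure D4:**
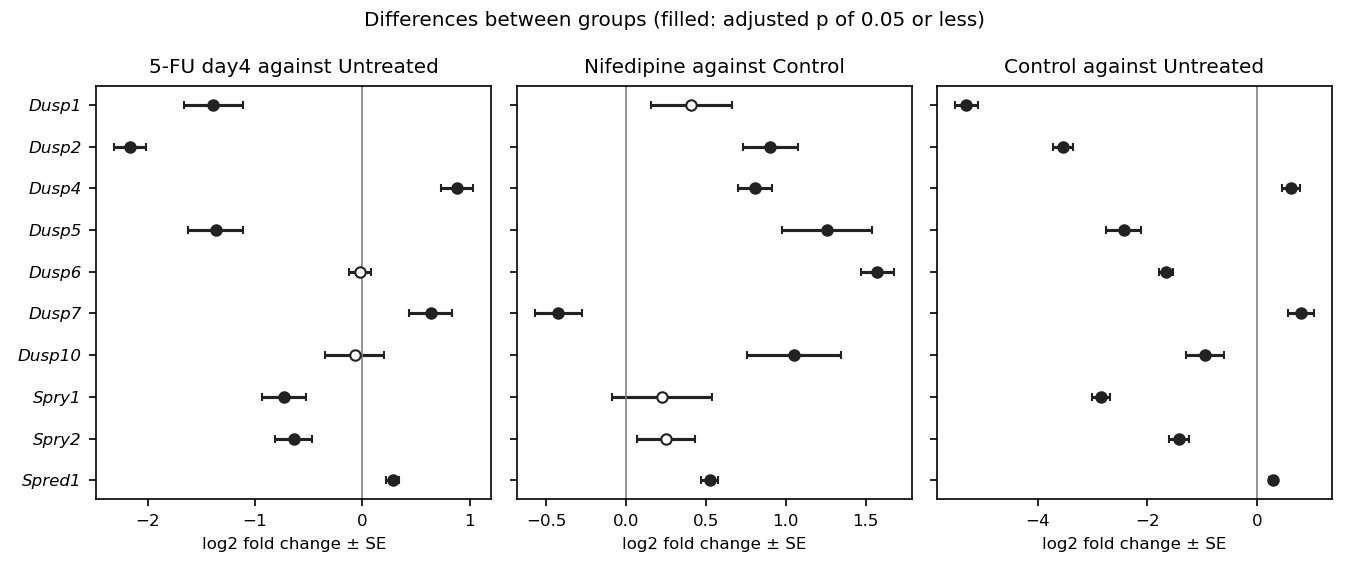
Log2 fold change ± SE of each gene in the 3 comparisons, each panel with its own axis. Filled points passed an adjusted p of 0.05 and open points did not. Dusp2 and Dusp5 lie at -2.17 and -1.37 after 5-FU and at 0.90 and 1.26 with nifedipine, and Dusp7 at 0.64 and -0.42.

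The Nifedipine libraries also held more HSC marker reads, with 9 of 10 HSC markers higher and 1 lower. The lower one was Slamf1, at 45.2 ± 2.84 CPM in Control (n = 3) and 22.3 ± 4.17 CPM in Nifedipine libraries (n = 4). Granulocyte and monocyte markers (10 genes) summed to 62.5 to 80.7 CPM in Control and 211 to 235 CPM in Nifedipine libraries, with 3 of 4 tested genes higher. Lyz2, the lysozyme gene, made up nearly all of this sum, at 67.5 ± 7.89 CPM in Control (n = 3) and 216 ± 10.1 CPM in Nifedipine libraries (n = 4), while Prtn3 was at 2.76 and 2.92 CPM, and Mpo, Elane, Ly6c2, S100a8 and S100a9 at 0 reads in both groups. Megakaryocyte markers (6 genes) summed to 276 to 446 CPM in Control and 132 to 268 CPM in Nifedipine libraries, with 4 of 6 lower and none at 0 reads. Erythroid markers fell in 3 of 3 tested genes, from a sum of 19.2 to 25.8 CPM to one of 4.15 to 6.21 CPM, and Slc4a1 was at 0 reads in both groups. The part of these shifts in the changes of the phosphatase genes was not tested.

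Other genes induced by ERK rose with nifedipine in 7 of 13 tested cases and fell in 0 (median 1.03). Ccnd1 rose from 35.2 ± 6.47 (n = 3) to 121 ± 5.90 CPM (n = 4), 1.78 on the log2 scale, Ier3 rose by 1.03 and Egr1 by 1.66. Of 3 tested further Sprouty and Spred genes, Spry4 rose from 9.01 ± 1.78 to 18.9 ± 1.81 CPM (1.07) and Spred3 by 0.85. On the list of MAPK phosphatases outside the 10 genes, which includes the inactive relative Styx, 6 genes were tested. Dusp22, at 0.589 ± 0.124 and 3.43 ± 1.37 CPM (2.53), and Dusp16 (0.47) rose, while Ptpn7 (-0.44) and Dusp3, named after its values were seen (-0.40), fell. Immediate early genes rose in 7 of 15 tested cases and fell in 0, led by the zinc finger factor Klf6 (1.34), Ier3 and Egr1. Ier3 and Egr1 count both here and among the genes induced by ERK.

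Core genes from RAS to ERK fell in 9 of 24 cases and rose in 6, led by the adaptor Gab1 (1.06), the phosphatase Ptpn11 (-0.46) and Hras (-0.75). Inhibitors and partners rose in 8 of 18 cases and fell in 1, led by Sh2b3, an adaptor that restrains cytokine receptors (0.81), Rasa3 (0.60) and Dab2ip, a RAS GTPase activator (0.73). Of 10 transcription factors and kinases under ERK, 5 rose and 2 fell, with Rps6ka5 at 0.85, Atf1 at -0.56 and Srf at -0.64. The p38 and JNK branch rose in 7 of 14 cases and fell in 1, with Map3k1 at 0.40 (0.18 and not called after length correction, adjusted p = 0.0832, edgeR), Mapk9 at 0.33 (0.19 after length correction) and Map2k6 at 0.60. Receptors upstream of ERK rose in 9 of 14 cases and fell in 2, with the cytokine receptor subunit Csf2rb at 0.92, the stem cell factor receptor Kit at 0.79 and Fgfr1 at 1.62.

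The third comparison set the cultured Control HSCs beside the fresh Untreated HSCs. Culture cannot be told apart from anything else that differed between the fresh and the cultured sets, and the comparison shares the Untreated libraries with the first comparison and the Control libraries with the second. Of the 10 genes, 7 were lower in culture, Dusp1, Dusp2, Dusp5, Dusp6, Dusp10, Spry1 and Spry2, and 3 were higher, Dusp4, Dusp7 and Spred1. That is 10 of 10 called against 72.0% of the 13518 genes tested, with 36.2% of all genes lower and 35.8% higher. The ranges of the groups did not overlap for all 10 genes, 3 higher and 7 lower, against 34.6% of all genes higher and 37.4% lower. The median log2 fold change was -1.54 over the 10 genes and -0.05 over all genes.

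Dusp1 differed most, from 265 ± 50.3 CPM (n = 4) to 6.44 ± 1.48 CPM (n = 3), which is 39.3-fold lower (-5.30 ± 0.21, adjusted p = 4.4e-08, edgeR). Dusp2 was 11.6-fold lower (-3.54 ± 0.19, adjusted p = 1.99e-07, edgeR), Spry1 7.19-fold (-2.85 ± 0.17), Dusp5 5.40-fold (-2.43 ± 0.32), Dusp6 3.16-fold (-1.66 ± 0.12) and Spry2 2.69-fold (-1.43 ± 0.18). No Control library reached the Untreated range of any of these 6 genes. Dusp4 was higher by 0.62 ± 0.16 and Dusp7 by 0.80 ± 0.23. Dusp7 was not called without Control 1 (0.72, adjusted p = 0.0504, edgeR) and stood at 0.54 without Untreated 2 and 4.

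Dusp10 was lower by -0.94 ± 0.34 (adjusted p = 0.0307, edgeR), a call lost without Untreated 2 (0.0701), Untreated 4 (0.0605), Control 1 (0.0889) or Control 2 (0.0987), without Untreated 2 and 4 together (-0.62, 0.214), with the RPKM read total (0.0918), after length correction (0.0658) and with the replicate block (0.12). Spred1 was higher by 0.29 ± 0.07 (adjusted p = 0.00323, edgeR). Its value was 0.53 with the RPKM read total, 0.86 after length correction and 0.13 with a filter at 10 CPM, where it was not called (adjusted p = 0.115, edgeR).

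Immediate early genes were lower in culture in 17 of 18 cases and higher in 0 (median -4.37), with Fos falling from 1078 ± 249.5 to 0.311 ± 0.357 CPM, Zfp36 from 260 ± 53.7 to 10.5 ± 0.390 CPM, and Egr1 from 1019 ± 260 to 11.8 ± 3.62 CPM. Of 14 genes induced by ERK outside the 10, 7 were lower and 5 higher, a count that includes Fos, Egr1 and other genes of the immediate early list. Egr3, at 122 ± 82.0 CPM in Untreated libraries (38.1 to 206 CPM), had 0 reads in the 3 Control libraries. Its Untreated mean lay 2490-fold above the Control floor, set at 3 reads over the group (not called by limma-voom, adjusted p = 0.117). Receptors upstream of ERK were lower in 12 of 14 cases and higher in 2, with Igf1r at -1.29 (-0.39 after length correction) and Csf2ra at -2.41. Inhibitors and partners were lower in 10 of 18 cases and higher in 3, with Cic (-0.67, -0.43 with the RPKM read total, and turned to 0.11 after length correction) and Dab2ip lower (-0.95, -0.33 after length correction).

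Core genes from RAS to ERK were higher in 11 of 24 cases and lower in 5, with rises of Rps6ka3 (0.96, 1.68 after length correction) and Grb2 (0.95). On the list of MAPK phosphatases outside the 10, 3 of 7 tested genes were higher and 3 lower. Ptpn7 stood at 1.48 and Styx, which lacks phosphatase activity, at 0.68 (1.05 after length correction), and Dusp22 fell from 18.5 ± 3.81 to 0.589 ± 0.124 CPM. Of 3 further Sprouty and Spred genes, Spred3 was lower (-0.87, -0.33 and not called after length correction, adjusted p = 0.0707, edgeR) and Spry4 higher (0.73, adjusted p = 0.0468, edgeR; 1.13 after length correction). The Spry4 call was lost with no filter (0.0549), with the replicate block (0.0794), without Untreated 2 and 4 (0.108) and without Untreated 1 (0.0979), Untreated 4 (0.11), Control 1 (0.0674), Control 2 (0.164) or Control 3 (0.0679). Of 10 factors under ERK, 2 were higher and 5 lower, with Atf1 at 1.10, Ets1 at -2.03 and Elk3 at -0.62 (-0.38 with the RPKM read total, -0.25 after length correction). The p38 and JNK branch had 4 of 14 higher and 7 lower, with Mapkapk2 at 1.28, Map3k1 at -1.21 (-0.42 after length correction) and Map2k3 at 1.31. HSC markers were lower in culture in 9 of 10 cases. Endothelial and stromal markers were lower in 8 of 9 tested genes, with summed levels of 142 to 166 CPM in Control libraries and Cxcl12 and Col3a1 at 0 reads there, and granulocyte and monocyte markers were lower in 5 of 5 and erythroid markers in 4 of 6, with 2 higher. The part of these differences in the results for the 10 genes was not tested.

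Across the 4 groups, the 10 genes followed different orders. Dusp1 and Spry1 ran from Untreated over 5-FU day4 to the cultured groups, with no overlap between Untreated and 5-FU day4 or between 5-FU day4 and Nifedipine, and with overlap between Nifedipine and Control. Dusp2 took the same order with no overlap between any neighbours, at group means of 100.5, 22.0, 15.6 and 8.34 CPM. Spry2 followed it too, but Untreated overlapped 5-FU day4 and Nifedipine overlapped Control. Dusp5 was highest in Untreated, and Nifedipine and 5-FU day4 overlapped at 6.20 and 5.51 CPM, above Control at 2.59 CPM.

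For Dusp6, Untreated, 5-FU day4 and Nifedipine HSCs overlapped at 84.4, 81.6 and 76.6 CPM, and Control stood apart below them at 25.8 CPM. Dusp10 overlapped between all neighbours in its order, but Control lay below both Untreated and Nifedipine without overlap. Dusp4 was highest in Nifedipine (53.9 CPM) and lowest in Untreated (20.7 CPM), with 5-FU day4 and Control overlapping between them, and Spred1 had the same order. Dusp7 was highest in Control (21.0 CPM), which overlapped 5-FU day4, and lowest in Untreated (12.5 CPM), which overlapped Nifedipine.

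The genes with the most similar pattern over the 15 libraries were sought by Pearson's r of log2(CPM + 1) for members with a mean of at least 10 CPM, as a description. The libraries fall into 4 groups, fresh and cultured, that the genes share. Dusp1 was most like Fos (r = 0.994), an immediate early transcription factor, and Pygm (0.991), and Dusp2 most like Cyp2j9 and Ocrl (0.981 each). Spry2 was most like Myo5c (0.965) and Epc1 (0.959). Dusp6 was most like St8sia4 (0.977) and Cep68 (0.974), Dusp4 most like Selp (0.957) and Capg (0.954), Spred1 most like Atf5 (0.977) and Pgm2l1 (0.972), and Dusp7 most like Mast2 (0.899) and Ndufaf4 (0.892).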

How the data were processed

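Libraries were made from 100 sorted cells with Nextera XT, per the labels' protocols, so strand is not known, and reads were placed on mm10, per the submitters' processing notes. The aligner and counting program: not given in the sources used here. Each deposited library table gives total exon reads (whole-number counts) and RPKM values that the authors computed, per the file headers. The 48737 features were reduced to 46118 genes by adding up 4543 scaffold copies of 1925 genes. From the RPKM values, exon lengths and the total of reads they were scaled by were recovered, and nothing else. Coordinates follow the files, counted from 1.

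The libraries of each comparison were fitted alone in edgeR 4.0.16 (TMM, filterByExpr defaults, quasi-likelihood test, group as the only term, Benjamini-Hochberg adjustment over all genes, calls at 0.05). SEs and 95% intervals come from that fit, and levels use 1 TMM scaling over all 15 libraries. Alternatives used limma 3.58.1, DESeq2 1.42.0, other filters, the RPKM read total, a loess correction for exon length, all 4 groups in 1 fit, primary chromosome rows only, a replicate block and left-out libraries. Exon reads per library ran from 6171730 to 26673045. No pair of replicates agreed within sampling noise. Members and gene lists were chosen with earlier results of these data known. From each pathway list the 3 called genes with the smallest p are named, some under more than 1 list, and a few genes that this rule or the likeness search picked are not reported here. For likeness, genes with a mean under 10 CPM or a predicted or clone name were left out.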

Additional observations from a re-analysis of the deposited data

Results flagged for a closer look

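Dusp7 in the Nifedipine group held 1 value apart from the rest: Nifedipine 2 was at 14.0 CPM, while the other 3 libraries lay between 16.1 and 16.4 CPM. The gap was 0.888 of the range of the group, above the 95% limit of Dixon's test for 4 samples. It was the only one of 30 gene and group pairs with 4 samples so marked, and chance marks about 1 in 20.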

How the results depend on the processing

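When the RPKM read total served as library size, 1839 genes in place of 3184 fell after 5-FU and 5148 in place of 3580 rose (73.7% of calls higher against 52.9%), and log2 fold changes moved by a median of 0.20. That setting moved the culture comparison by 0.24 (60.4% of calls higher against 49.8%), length correction moved it by 0.27 (63.3%) and the filter at 10 CPM by -0.17. In the nifedipine comparison 39.6% of calls were higher after length correction, against 51.6%. The single fall among the 10 genes with nifedipine, Dusp7, became 0 with the RPKM read total and with all 4 groups in 1 fit, and 0 to 1 when each library was left out in turn. Falls after 5-FU were 3 without Untreated 2 and 4, a choice made after seeing the data, and 5 without any 1 library. Of all genes, 2444 of 13821 fell without Untreated 2 and 4, and 2731 to 3321 of 13509 to 13687 without any 1 library. In culture, Cic turned to 0.11 after length correction. For the 10 genes, 184 of 189 alternative values in the 5-FU, 151 of 156 in the nifedipine and 168 of 178 in the culture comparison kept direction (where called) and side of the threshold. The culture values count the fit without Untreated 3 more than once. Leaving out 1 library each gave 2 to 3 rises after 5-FU, 6 with nifedipine, and 2 to 3 rises and 6 to 7 falls in culture. Rises among all genes were then 3129 to 3502 of 13509 to 13687 after 5-FU and 2876 to 3110 of 12642 to 13111 with nifedipine. In culture, 4567 to 4807 of 13245 to 14006 genes rose and 4508 to 4786 fell. At 10 CPM, Dusp1, Dusp5, Dusp10 and Spry1 were not tested in the nifedipine comparison, which left 4 rises. Of all 9159 genes tested there, 2837 rose. Dusp5 and Dusp10 were not tested in the culture comparison, which left 5 falls, and Spred1 was tested but not called there, which left 2 rises. Of all 9697 genes tested there, 3829 fell and 3804 rose. After 5-FU, correlations of same-numbered deviations ran from -0.141 to 0.162, inside the range of other pairs (-0.453 to 0.384). In the nifedipine comparison they were small but mostly above those of other pairs, at 0.012 to 0.048 against -0.05 to 0.023. With so few libraries these values can neither show nor exclude a pairing. With the replicate block, calls were 3 rises and 5 falls after 5-FU, 6 and 1 with nifedipine, and 3 and 6 in culture, where Dusp10 was lost. Among all genes they were 3395 rises and 2937 falls of 13382, 3198 and 3088 of 12805, and 4598 and 4404 of 13518. In Control libraries Dusp5 had 42 to 64 and Dusp10 had 40 to 75 reads, which limits their precision. The cause of these moves was not tested.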
